A study of Mus musculus with 12 samples.

Results

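Ion channel genes were described in the brains of 12 mice. The group held every gene listed under an Ensembl mouse identifier whose symbol starts with Kcn (potassium channels), Hcn and a digit (channels gated by hyperpolarization and cyclic nucleotides), Scn and a digit (voltage-gated sodium channels), or Cacna, Cacnb and Cacng (calcium channels and their auxiliary subunits). Kcnj10 and symbols that mark antisense transcripts or pseudogenes were left out by the same rule. This gave 137 of the 31208 genes listed, made up of 93 potassium, 4 HCN, 14 sodium and 26 calcium channel genes. The symbols fit a whole family and not the channel of 1 cell type, and 6 of the calcium channel genes encode TARPs, which share the Cacng name with calcium channel subunits but are known as partners of AMPA glutamate receptors.

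All mice were C57BL/6 and 8 wks old, with 4 mice in each of 3 groups. Sham mice had no arterial occlusion, and the sources used here do not say whether they received an intracerebroventricular (i.c.v.) injection. The other groups underwent middle cerebral artery occlusion (MCAO), a mouse model of ischemic stroke, with brain tissue taken 6 h after ischemia. They had received i.c.v. saline (vehicle-treated mice) or i.c.v. lactate (lactate-treated mice) before the occlusion. The labels name lactate without its form, whereas the methods of the study name D-lactate for this experiment. Each library came from brain tissue as a whole, so fewer cells of a type and less RNA per cell cannot be told apart in any value that follows. The sham mice were shared by both comparisons against sham, so these 2 comparisons are not independent of each other.

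Voltage-gated channels open or close with the membrane potential. Sodium channels carry the rising phase of the action potential, potassium channels repolarize the membrane and set its resting level, and calcium channels couple activity to transmitter release and gene expression. Most are built from a pore-forming subunit, which conducts the ions, and auxiliary subunits, which steer its gating and its delivery to the surface. In ischemia, failing ion pumps let neurons depolarize, and these channels are among the routes by which sodium, potassium and calcium then cross the membrane.

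Promoter sequences of 5 members are shown first, because the comparison of lactate-treated with sham mice turned on these genes. They are the KChIP genes Kcnip3 and Kcnip4, which moved in opposite directions, Kcnj2, which had the largest drop of all members called, Scn1a, which had the smallest p of the sodium channel genes, and Cacna2d1, the calcium channel gene that was called. Each is the 250 bases before a transcription start site annotated by RefSeq on GRCm38.p6, given 5′ to 3′ on the strand of the gene. Letters in capitals match one of the motifs searched on both strands: the AP-1 motif (TGAGTCA or TGACTCA), the GC box (GGGCGG or CCGCCC) and the core of the hypoxia response element (ACGTG or CACGT). The window shown for Kcnip3 lies at chr2:127522095-127522344 on the minus strand, that of Kcnip4 at chr5:49285660-49285909 (minus), that of Kcnj2 at chr11:111065914-111066163 (plus), that of Scn1a at chr2:66440838-66441087 (minus) and that of Cacna2d1 at chr5:15934441-15934690 (plus).
Kcnip3: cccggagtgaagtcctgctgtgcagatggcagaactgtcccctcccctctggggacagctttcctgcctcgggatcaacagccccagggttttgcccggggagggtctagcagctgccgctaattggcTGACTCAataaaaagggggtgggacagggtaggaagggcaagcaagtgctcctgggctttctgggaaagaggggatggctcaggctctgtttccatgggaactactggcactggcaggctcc
Kcnip4: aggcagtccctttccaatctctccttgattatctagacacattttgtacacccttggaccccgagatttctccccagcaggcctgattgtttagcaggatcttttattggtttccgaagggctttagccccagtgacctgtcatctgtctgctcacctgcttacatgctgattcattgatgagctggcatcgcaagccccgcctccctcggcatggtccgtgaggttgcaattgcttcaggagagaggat
Kcnj2: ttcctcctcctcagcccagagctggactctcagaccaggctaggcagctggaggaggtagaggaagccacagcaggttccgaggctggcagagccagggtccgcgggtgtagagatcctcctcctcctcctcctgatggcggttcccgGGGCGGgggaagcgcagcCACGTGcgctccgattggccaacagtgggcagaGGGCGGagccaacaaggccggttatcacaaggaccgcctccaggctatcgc
Scn1a: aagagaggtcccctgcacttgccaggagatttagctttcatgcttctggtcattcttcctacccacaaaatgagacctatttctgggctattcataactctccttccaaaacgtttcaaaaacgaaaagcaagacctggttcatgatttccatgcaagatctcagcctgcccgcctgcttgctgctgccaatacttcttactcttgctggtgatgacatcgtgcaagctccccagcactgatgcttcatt
Cacna2d1: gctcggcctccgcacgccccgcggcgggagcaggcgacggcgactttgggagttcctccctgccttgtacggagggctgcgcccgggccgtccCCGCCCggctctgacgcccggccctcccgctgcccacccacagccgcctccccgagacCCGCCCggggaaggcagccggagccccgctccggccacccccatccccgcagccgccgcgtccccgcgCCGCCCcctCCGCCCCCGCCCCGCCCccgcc
RefSeq gives Kcnip3 3 windows and Kcnip4 2, of which 1 each is shown. In the Kcnip3 window shown, 1 AP-1 match starts 122 bases before the start site, while neither of the other 2 Kcnip3 windows holds an AP-1 match. In the Kcnj2 window, the capitals CACGTG hold overlapping matches to the hypoxia response core on both strands, with a GC box on each side. The Cacna2d1 window has a GC content of 82.4% and 6 GC boxes, 3 of them within the last 22 bases, whereas the Scn1a window has a GC content of 46.8%. No letters of these motifs occur in the windows of Kcnip4 and Scn1a.

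RefSeq windows were found for 100 of the 137 members, as 136 windows, because some genes have several start sites. The GC box occurred in 42.6% of the member windows and in 32.7% of all 32851 windows. The AP-1 motif occurred in 3 of the 136 member windows (2.21%, against 4.46% of all windows), and the hypoxia response core in 12.5% (against 16.6% of all). The palindromic cyclic AMP response element TGACGTCA was in 0 of the 136 member windows and in 1.55% of all windows. These matches describe the letters of the windows and not sites bound by a factor.

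Total counts per mouse ranged from 6815920 to 10677224, and the members took 0.306% to 0.503% of them. CPM scale the count of a gene to the total of its mouse. A count of 3 corresponded to 0.281 to 0.440 CPM, which was taken as the limit that a count of 0 allows, for counting error only. Vehicle mouse 1 stood apart, with 5026 CPM summed over all members, against 3060 to 3412 CPM in the other 3 vehicle-treated mice. Among the 100 members tested in the vehicle group, it was the highest of the 4 vehicle-treated mice in 63. Vehicle mouse 2 had 1840 CPM of choroid plexus markers, led by Ttr with 1817 CPM, against at most 18.8 CPM in any other mouse. Results that rest on vehicle mouse 1 are given with and without it, and without vehicle mouse 2 edgeR called 0 members in either comparison that uses the vehicle group, with 6 (against sham) and 5 (against lactate) at an unadjusted p under 0.05. Pan-neuronal markers (12 genes such as Rbfox3, Snap25 and Syt1) summed to 8491 to 8627 CPM in sham mice, 7948 to 9711 CPM in vehicle-treated mice and 7906 to 8749 CPM in lactate-treated mice, and 0 of the 12 were called in any comparison.

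A member was tested where it reached 1 CPM in at least 4 of the 8 mice compared. This left 98 members in all 3 comparisons, with 100 in at least 1, while 37 were tested in none. The 37 untested members were 26 potassium, 1 HCN, 5 sodium and 5 calcium channel genes. Of these, 3 were listed at 0 in all 12 mice, and 17 did not exceed 3 counts in any mouse. The highest value of an untested member was 6.60 CPM, of Kcne2, an auxiliary subunit known from choroid plexus and heart. That value came from vehicle mouse 2, the mouse with the choroid plexus markers, and Kcnj13, an inward rectifier known from the same epithelium, was also highest there, at 3.76 CPM, against 0.136 to 1.24 CPM in the other mice.

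Levels of different genes were compared only per length, as CPM per kilobase of the longest annotated transcript. By this measure Cacnb3, a calcium channel beta subunit that helps to bring the pore to the surface, had 96.2 ± 10.5 CPM per kilobase in sham mice (SD, n = 4). Next in order was Kcnab2, the potassium channel beta subunit found with axonal channels, with 62.1 ± 6.27 CPM per kilobase, and its range lay below that of Cacnb3. Both are auxiliary subunits.

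Kcnk1, a leak channel gene of the K2P family, had 46.0 ± 4.82 CPM per kilobase in sham mice and was the highest pore-forming member. Its range lay below that of Kcnab2 and overlapped with that of the next in order, Kcna6, a delayed rectifier with 37.9 ± 12.2 CPM per kilobase. Of the 10 highest members in sham mice, 6 were potassium, 2 sodium and 2 calcium channel genes, and 9 of the 10 were also among the 10 highest in vehicle-treated and in lactate-treated mice. The exception was Kcnip4, which ranked 10th in sham mice, 11th in vehicle-treated mice and 17th in lactate-treated mice. In its place stood Kcnip3, which ranked 14th, 10th and 8th in the same groups.

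Summed over each class, the potassium channel genes gave 1868 to 2085 CPM in sham mice, 1640 to 2560 CPM in vehicle-treated mice and 1918 to 2056 CPM in lactate-treated mice. The groups overlapped, and the top vehicle value was that of mouse 1, with the other 3 at 1640 to 1772 CPM, below every sham mouse. The sodium channel genes summed to 803 to 1011 CPM in sham mice, 636 to 1218 CPM in vehicle-treated mice (636 to 717 CPM without mouse 1) and 661 to 818 CPM in lactate-treated mice. The calcium channel genes summed to 969 to 1071 CPM in sham mice, 762 to 1218 CPM in vehicle-treated mice (762 to 906 CPM without mouse 1) and 842 to 922 CPM in lactate-treated mice. Calcium was the class in which the lactate-treated and sham mice did not overlap, all 4 lactate-treated mice being lower. These sums are dominated by abundant members and were not tested.

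**Figure D1:**
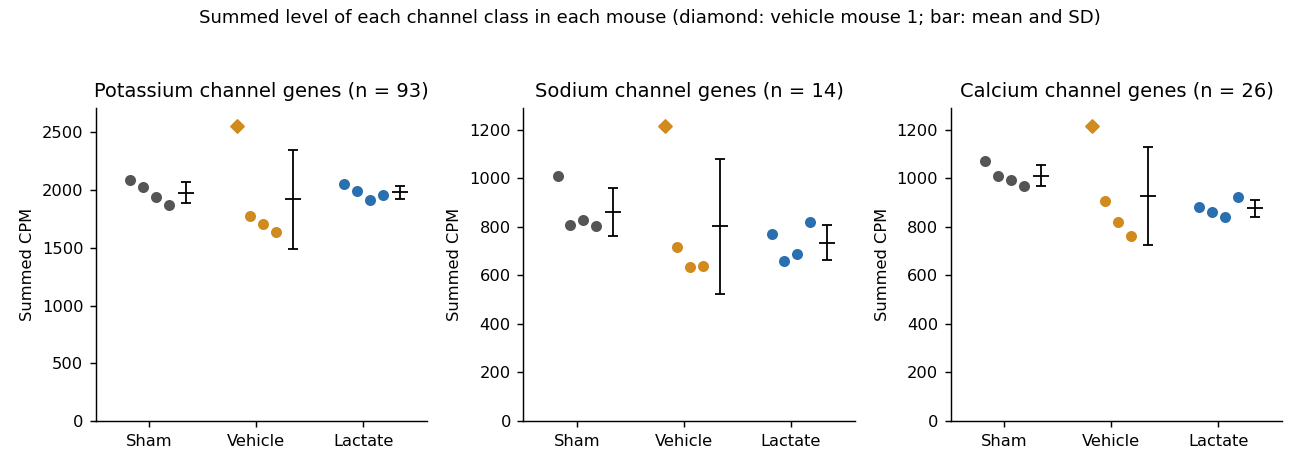
Summed CPM of potassium (n = 93), sodium (n = 14) and calcium (n = 26) channel genes (vertical axes) in each mouse of the 3 groups (horizontal axes), with the mean and SD of 4 mice beside the points. Vehicle mouse 1, drawn as a diamond, lies above all other mice in each class, at 2560, 1218 and 1218 CPM, and the lactate-treated mice lie below all sham mice for calcium.

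The first comparison asked how 6 h of ischemia with vehicle changed the channel genes relative to sham. By the quasi-likelihood test of edgeR, with p values adjusted over all genes by the Benjamini-Hochberg method, 0 of 100 members passed an adjusted p under 0.05. DESeq2 also gave 0, whereas limma voom with quality weights called 1 member, Scn1a, as lower. Of all genes tested, edgeR called 1.47%, 1.29% as higher and 0.182% as lower. At an unadjusted p under 0.05, 6 members remained, compared with 13.8% of all genes. The median log2 fold change was 0.03 over the 67 potassium, −0.28 over the 9 sodium and −0.06 over the 21 calcium channel genes tested, and 0.00 over all genes. Among the sodium channel genes, all 5 pore-forming subunits tested (Scn1a, Scn2a, Scn3a, Scn8a and Scn9a) had values below 0, from −0.70 to −0.23, while the beta subunits Scn2b, Scn3b and Scn4b had −0.19, 0.20 and −0.45.

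Under the limits the study used, read as an unadjusted p under 0.05 with a fold change of at least 1.5, 2 members were higher and 1 was lower. The same limits called 6.50% of all genes higher and 3.01% lower (4.97% and 2.76% of those with an Ensembl identifier). The member with the largest value was Kcne4, a small auxiliary subunit that modulates voltage-gated potassium channels. For Kcne4, sham mice 1 to 4 had 0.791, 0.223, 0.679 and 1.6 CPM, vehicle-treated mice 1 to 4 had 0.562, 4.14, 5.35 and 2.20 CPM, and lactate-treated mice 1 to 4 had 0.811, 1.44, 2.11 and 2.09 CPM. The level was low, and the high vehicle values were those of mice 2 to 4. The log2 fold change was 1.90 (SE 0.64, edgeR adjusted p = 0.212).

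Kcnj6 encodes a G protein-gated inward rectifier (GIRK) subunit, which damps excitability when inhibitory receptors are active. From mouse 1 to 4, Kcnj6 measured 1.71, 2.12, 1.49 and 2.59 CPM with sham, 4.31, 3.76, 5.35 and 2.93 CPM with vehicle and 2.16, 3.71, 1.71 and 1.62 CPM with lactate. Every vehicle-treated mouse was above every sham mouse, and the lactate-treated mice overlapped with both groups. Against sham the log2 fold change was 1.07 (SE 0.30, edgeR adjusted p = 0.123) with vehicle and 0.24 (SE 0.34, edgeR adjusted p = 0.703) with lactate. The partner subunits did not follow, with values of −0.24 for Kcnj3 and −0.06 for Kcnj9 with vehicle. Of the 100 members, 2 were higher without overlap (Kcnj6 and Kcnf1, an electrically silent subunit) and 1 was lower without overlap (Kcnt1, a sodium-activated potassium channel), against 4.14% and 4.89% of all genes (3.63% and 5.22% of those with an Ensembl identifier).

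Without vehicle mouse 1, 99 members were tested, of which 1 passed in the higher direction (Kcne4) and 3 in the lower direction (Scn1a, Scn2a and Kcnq3), against 1.8% and 0.413% of all genes. Then Scn1a fell by 1.07 on the log2 scale (SE 0.21, edgeR adjusted p = 0.0241), Scn2a by 0.55 (SE 0.13, adjusted p = 0.0483) and Kcnq3 by 0.70 (SE 0.16, adjusted p = 0.0456), and Kcne4 rose by 2.28 (SE 0.49, adjusted p = 0.0369). The median of the sodium channel genes was −0.51 in this fit, with 8 of 9 below 0, that of the calcium channel genes −0.16 (18 of 21 below 0) and that of the potassium channel genes −0.13 (41 of 66 below 0), while that of all genes was −0.02. Whether edgeR called any member against sham therefore depended on this mouse.

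**Figure D2:**
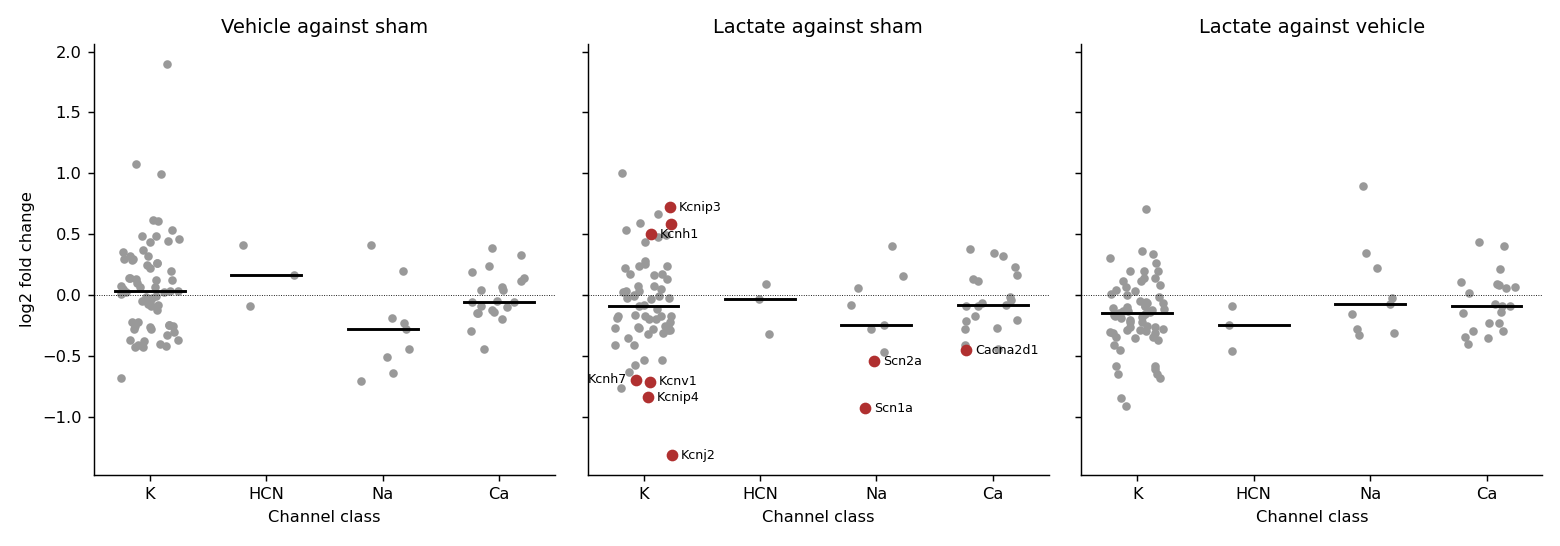
Log2 fold change (vertical axis) of every member tested, by class (horizontal axis: potassium, HCN, sodium and calcium), in the 3 comparisons with all mice included. Each point is a gene, the bar is the median of the class and red points passed an adjusted p under 0.05. Members passed in the middle panel alone, where 3 lie above 0 and 7 below.

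The second comparison set lactate-treated ischemic mice against sham. Here 10 of 98 members passed, 3 of which rose (among them Kcnip3 and Kcnh1) and 7 of which fell (Kcnip4, Scn1a, Kcnv1, Scn2a, Cacna2d1, Kcnj2 and Kcnh7). Over all genes tested, 12.3% were called, 8.76% as higher and 3.55% as lower, but many of the higher genes are loci without an Ensembl identifier, which the members have by their rule. Of the 13167 genes tested that have this identifier, 9.16% were called, 5.04% as higher and 4.12% as lower. The share of members called was near both backgrounds, and the difference in their split between directions was not tested. By class, 7 of 65 potassium, 0 of 3 HCN, 2 of 9 sodium and 1 of 21 calcium channel genes passed. The medians were −0.09, −0.03, −0.25 and −0.08 in the same order, against −0.03 over all genes tested, and 62 of 98 members lay below 0, against 53.1% of all genes and 57.6% of those with an Ensembl identifier (median −0.06).

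Markers of cell types were set beside these calls. Striatal neuron markers (8 genes such as Drd1) summed to 447 to 727 CPM in sham mice, 291 to 914 CPM in vehicle-treated mice and 779 to 898 CPM in lactate-treated mice, so that every lactate-treated mouse was above every sham mouse, and 1 of the 8 was called higher. Excitatory neuron markers (6 genes such as Slc17a7) summed to 915 to 1186 CPM in sham and 969 to 1060 CPM in lactate-treated mice, and inhibitory neuron markers (6 genes such as Gad1) to 588 to 700 CPM and 551 to 644 CPM, with 0 of 6 called in each list. The excitatory sum overlapped between groups, yet 5 of its 6 genes lay below 0, with a median of −0.26, and 2 of them were lower without overlap. Other cell types also differed without overlap in their sums. Microglia markers (7 genes) summed to 253 to 292 CPM in sham and 305 to 329 CPM in lactate-treated mice, with 1 called in each direction, and endothelial markers (6 genes) to 154 to 160 CPM and 172 to 220 CPM, also with 1 called in each direction. Neutrophil markers (6 genes, of which Ly6g was at 0 in all sham mice) summed to 2.79 to 7.65 CPM in sham and 20.6 to 43.6 CPM in lactate-treated mice, with 3 called higher. Mural cell markers (7 genes) were lower, with 61.8 to 79.0 CPM in sham and 49.7 to 55.0 CPM in lactate-treated mice and 0 called, as were blood markers (5 genes), with 560.4 to 633 CPM and 375 to 499 CPM and 4 called lower. Choroid plexus markers summed to 1.63 to 4.88 CPM and 9.94 to 18.8 CPM. Sums of astrocyte and oligodendrocyte markers overlapped, with 1 of 8 called higher and 2 of 7 called lower. The part of these shifts in the channel results was not tested.

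The smallest p of any member belonged to the KChIP family, calcium-binding proteins that join Kv4 pores and shape the fast A-type potassium current. Kcnip4 (chr5:48389502-49524907, minus strand, GRCm38) encodes a KChIP of the brain. Kcnip4 was at 56.2, 46.4, 62.6 and 49.7 CPM in sham mice 1 to 4, at 52.5, 51.4, 39.0 and 32.6 CPM in vehicle-treated mice 1 to 4 and at 32.9, 30.1, 26 and 28.5 CPM in lactate-treated mice 1 to 4. All 4 lactate-treated mice lay below all sham mice, and the vehicle-treated mice spread over both ranges, with mice 1 and 2 within the sham range. Kcnip4 fell by 0.84 on the log2 scale (SE 0.13, edgeR adjusted p = 0.00147), which was a 1.79-fold drop. It passed in all 17 alternative settings, among which the log2 fold change ran from −0.90 to −0.76. A gene on the opposite strand, 5730480H06Rik, overlaps Kcnip4 and had 532 counts over the 12 mice, and whether strand was used in counting is not stated.

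Kcnip3 (chr2:127456498-127522094, minus strand) encodes the KChIP also known as DREAM or calsenilin, which in addition binds DNA as a repressor. The 4 sham mice had 46.8, 42.2, 46.7 and 41.1 CPM of Kcnip3, the vehicle-treated mice 82.6, 45.3, 45.7 and 59.1 CPM and the lactate-treated mice 82.8, 79.2, 67.8 and 55.7 CPM, each in the order of mouse 1 to 4. The sham mice lay close together and every lactate-treated mouse was above them, as were vehicle mice 1 and 4. Kcnip3 rose by 0.72 (SE 0.14, edgeR adjusted p = 0.00476), and it too passed in all 17 alternative settings, from 0.64 to 0.84. The other KChIP genes had log2 fold changes of 0.22 (Kcnip1) and −0.17 (Kcnip2), which did not pass. Of the Kv4 pores that KChIPs join, Kcnd2 had −0.41 and Kcnd3 0.48, which did not pass either.

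Scn1a and Scn2a encode the pores of neuronal sodium channels, Scn1a being prominent in fast-spiking inhibitory neurons and Scn2a in the axons of excitatory neurons. Scn2a lies at chr2:65620771-65767447 (plus strand) and Scn1a at chr2:66270778-66440840 (minus strand), with 503330 bases between them. For Scn1a, sham mice 1 to 4 had 132, 85.4, 97.0 and 93.2 CPM, vehicle-treated mice 1 to 4 had 112, 60.4, 49.3 and 31.3 CPM, and lactate-treated mice 1 to 4 had 40.2, 44.3, 57.5 and 66.7 CPM. All lactate-treated mice were below all sham mice, and so were vehicle mice 2 to 4, whereas vehicle mouse 1 was within the sham range. Scn1a fell by 0.93 (SE 0.17, edgeR adjusted p = 0.00365), a 1.90-fold drop, and passed in 16 of 17 alternative settings. The annotation places a gene on the opposite strand, Gm13630, over part of Scn1a.

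From mouse 1 to 4, Scn2a measured 117, 89.4, 116 and 106 CPM with sham, 141, 78.2, 66.9 and 68.5 CPM with vehicle and 60.4, 67.1, 70.1 and 90.1 CPM with lactate. The highest lactate-treated mouse, mouse 4, was above the lowest sham mouse, mouse 2, so these groups overlapped, and vehicle mouse 1 was above every other mouse. Scn2a fell by 0.54 (SE 0.13, edgeR adjusted p = 0.0167) and passed in 13 of 17 alternative settings. Of the other sodium channel pores, Scn8a, the main pore of mature nodes and initial segments, had −0.28 (SE 0.11, edgeR adjusted p = 0.134), Scn3a, which is typical of developing neurons, −0.46 and Scn9a 0.40. The beta subunits, adhesion proteins that modulate these pores, had values of −0.25 (Scn2b), 0.06 (Scn3b) and −0.09 (Scn4b). Thus 2 of 5 pores and 0 of 4 beta subunits passed in the lower direction.

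**Figure D3:**
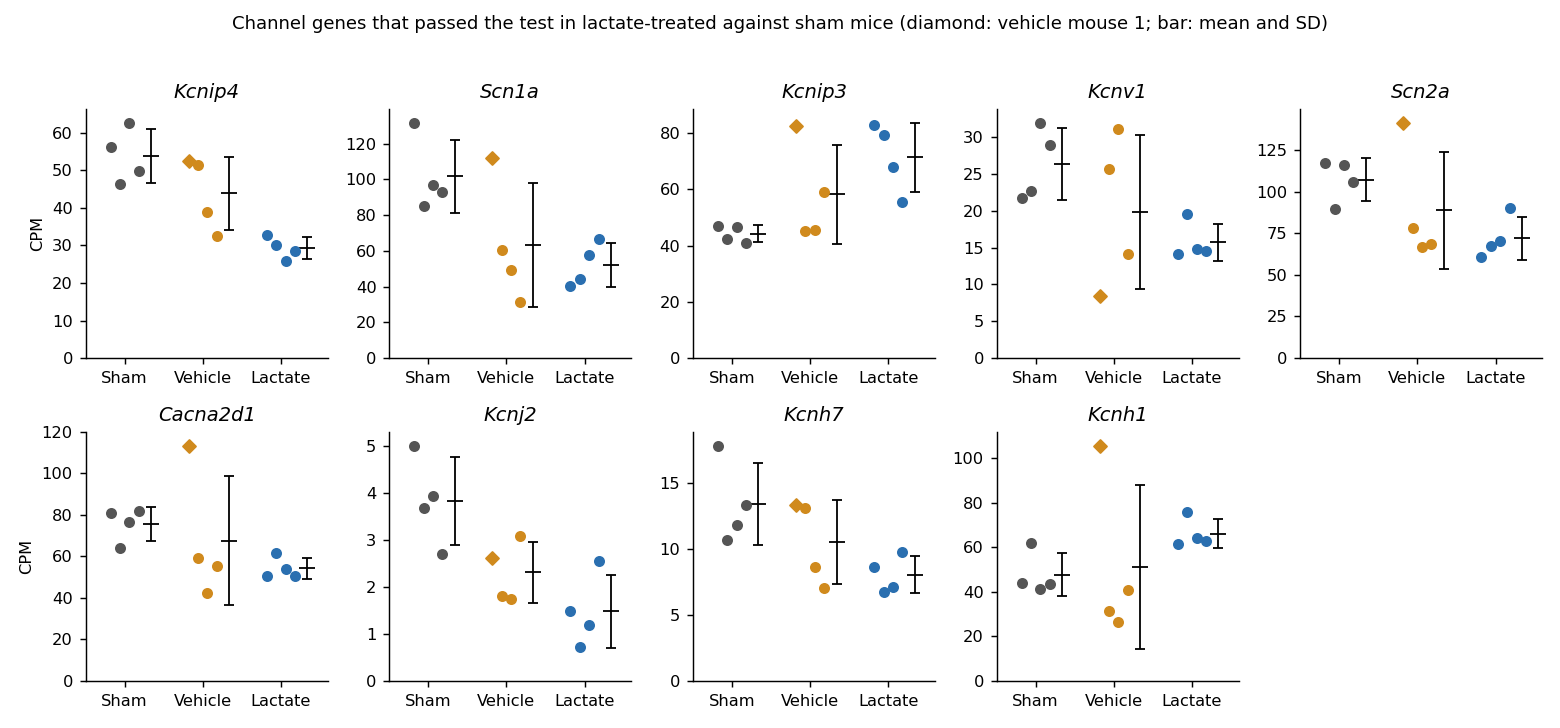
CPM (vertical axes) of 9 of the 10 members that passed in lactate-treated against sham mice, in each mouse of the 3 groups, with the mean and SD of 4 mice. Vehicle mouse 1 is drawn as a diamond, which lies above the other vehicle-treated mice for all genes shown except Kcnj2 and Kcnv1. For Kcnv1 it lies below them.

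Kcnq3 encodes a pore of the Kv7 family, which carries a slow current that restrains repetitive firing. Kcnq3 was at 29.0, 33.1, 27.4 and 27.3 CPM in sham mice 1 to 4, at 31.7, 16.2, 16.1 and 20.4 CPM in vehicle-treated mice 1 to 4 and at 20.4, 19.0, 21.2 and 25.5 CPM in lactate-treated mice 1 to 4. All lactate-treated mice were below all sham mice, but the change of −0.41 (SE 0.14, edgeR adjusted p = 0.0755) did not pass. The relative Kcnq5 had a log2 fold change of −0.27, which did not pass either.

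In the EAG, ERG and ELK family, 1 gene rose and 1 fell. Kcnh1, the EAG pore, is a delayed rectifier of the brain, and Kcnh7 is an ERG pore whose current is active near the resting potential. The 4 sham mice had 43.8, 61.9, 41.0 and 43.4 CPM of Kcnh1, the vehicle-treated mice 105, 31.3, 26.5 and 40.8 CPM and the lactate-treated mice 61.5, 75.6, 64.1 and 63 CPM, each in the order of mouse 1 to 4. Sham mouse 2 was at the level of lactate mouse 1, and vehicle mouse 1 was above all other mice. Kcnh1 rose by 0.50 (SE 0.15, edgeR adjusted p = 0.0461), a call that held in 8 of 17 alternative settings. For Kcnh7, sham mice 1 to 4 had 17.8, 10.7, 11.8 and 13.3 CPM, vehicle-treated mice 1 to 4 had 13.3, 13.1, 8.59 and 7.04 CPM, and lactate-treated mice 1 to 4 had 8.65, 6.71, 7.12 and 9.74 CPM. The lactate-treated mice lay below the sham mice without overlap, and Kcnh7 fell by 0.70 (SE 0.20, edgeR adjusted p = 0.0354), again in 8 of 17 alternative settings. Hhat and Gca overlap Kcnh1 and Kcnh7 in the annotation, with 67 and 242 counts over the 12 mice. The other 5 genes of the family that were tested had values from −0.35 to 0.53 and did not pass.

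Kcnv1 encodes an electrically silent subunit, which does not conduct on its own and modifies Kv2 pores. From mouse 1 to 4, Kcnv1 measured 21.8, 22.7, 31.9 and 29.0 CPM with sham, 8.43, 25.6, 31.1 and 14.1 CPM with vehicle and 14.1, 19.5, 14.8 and 14.5 CPM with lactate. The lactate-treated mice lay below the sham mice without overlap, with vehicle mouse 1 as the lowest of all. Kcnv1 fell by 0.71 (SE 0.17, edgeR adjusted p = 0.0160) and passed in 15 of 17 alternative settings, while the Kv2 pore Kcnb2 had a value of −0.57. Kcnv1 was also 1 of 7 silent subunits tested, of which the other 6 lay between −0.53 and 0.03.

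Kcnj2 encodes a classical inward rectifier, which holds the resting potential near that of potassium. Kcnj2 was at 5.01, 3.68, 3.94 and 2.71 CPM in sham mice 1 to 4, at 2.62, 1.81, 1.74 and 3.08 CPM in vehicle-treated mice 1 to 4 and at 1.49, 0.719, 1.19 and 2.55 CPM in lactate-treated mice 1 to 4. Every lactate-treated mouse was below every sham mouse, and the vehicle-treated mice overlapped with both groups. Kcnj2 fell by 1.32 (SE 0.35, edgeR adjusted p = 0.0277), which was the largest drop of any member but rested on 6 to 38 counts per mouse in these groups. It passed in 11 of the 16 alternative settings in which it was tested. Its relatives had values of 0.28 (Kcnj4), −0.53 (Kcnj3), −0.32 (Kcnj9) and −0.01 (Kcnj11, the pore of the ATP-sensitive potassium channel), and 0 of the other 9 inward rectifiers tested passed. Kcnj8 and Kcnj16 were at 0.66 and 0.59, with adjusted p values of 0.11 and 0.15.

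Kcnma1, the large-conductance potassium channel opened jointly by calcium and voltage, lay just outside the threshold. The 4 sham mice had 138, 117, 139 and 134 CPM of Kcnma1, the vehicle-treated mice 201, 89.2, 88.4 and 133 CPM and the lactate-treated mice 45.2, 81.8, 106 and 100.4 CPM, each in the order of mouse 1 to 4. All lactate-treated mice were below all sham mice, with lactate mouse 1 as the lowest. The log2 fold change was −0.63 (SE 0.20, edgeR adjusted p = 0.0527), and Kcnma1 passed with DESeq2, with limma voom and with the replicate block. Its beta subunits Kcnmb2 and Kcnmb4 were at 0.05 and 0.17.

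Among the calcium channel genes, 1 passed. Cacna2d1 encodes an alpha2delta subunit, an extracellular protein that raises the number of channels at the surface and binds gabapentin. For Cacna2d1, sham mice 1 to 4 had 81.0, 64.0, 76.6 and 81.8 CPM, vehicle-treated mice 1 to 4 had 113, 59.2, 42.5 and 55.6 CPM, and lactate-treated mice 1 to 4 had 50.7, 61.7, 54.1 and 50.4 CPM. The lactate-treated mice were below the sham mice without overlap, the highest of them being close to the lowest sham mouse, and vehicle mouse 1 was above all. Cacna2d1 fell by 0.45 (SE 0.12, edgeR adjusted p = 0.0223) and passed in 9 of 17 alternative settings. Cacna2d3 had a like value of −0.41 (SE 0.17, edgeR adjusted p = 0.143) but did not pass.

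None of the 8 calcium channel pores tested passed, and their log2 fold changes ran from −0.21 (Cacna1d) to 0.38 (Cacna1c), 4 on each side of 0. Cacna1a, the main pore of transmitter release at many synapses, had 12.1 ± 2.39 CPM in sham and 11.6 ± 2.18 CPM in lactate-treated mice (SD, n = 4 each). Cacna1e, the R-type pore, had 55.5 ± 13.2 and 53.3 ± 2.68 CPM. Of the 13 auxiliary calcium channel genes and TARPs tested, 10 lay below 0 and 1 passed, with Cacnb4 at −0.27 (SE 0.10, edgeR adjusted p = 0.0930) and Cacng3, a TARP of the forebrain, at −0.45 (SE 0.15, edgeR adjusted p = 0.0634). The HCN genes, whose current paces rhythmic firing, stayed between −0.32 and 0.09 and none passed.

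Under the study's limits, 3 members were higher and 7 lower in lactate-treated mice, against 11.9% and 5.65% of all genes (5.87% and 5.76% of those with an Ensembl identifier). Groups did not overlap for 1 member as higher and 9 as lower, against 10.4% and 8.74% of all genes (6.29% and 9.87% of those with an Ensembl identifier). Genes that work with these channels, as scaffolds, axonal adhesion proteins or regulators, were counted from a list of 29, all tested. Of these, 1 rose in lactate-treated mice (Rimbp2, a presynaptic linker of calcium channels, by 0.77, SE 0.13, adjusted p = 0.00237) and 3 fell, with 0 called in either of the other comparisons. The 3 were Cntn1, an axonal adhesion protein that binds sodium channels (−0.37, adjusted p = 0.0284), Adam22, an anchor near axonal Kv1 channels (−0.36, adjusted p = 0.0371), and Unc80, part of the sodium leak channel complex (−0.41, adjusted p = 0.0454). The same rule called 12.3% of all genes, 8.76% as higher and 3.55% as lower. Among genes with an Ensembl identifier, which all 29 have, it called 9.16%, 5.04% as higher and 4.12% as lower. The difference from these shares was not tested.

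The change against sham moved with transcript length. Over all genes with an annotated length, the median log2 fold change against sham was −0.02 up to 2000 bases, −0.04 from 2000 to 4000, −0.10 from 4000 to 6000, −0.12 from 6000 to 8000 and −0.18 above 8000 bases. The 22 members above 8000 bases had a median of −0.24. With an offset per mouse for this length trend, the 3 members that rose were still called and 4 of the 7 that fell were (Kcnip4, Scn1a, Kcnv1 and Kcnj2), while Scn2a (−0.40, adjusted p = 0.053), Cacna2d1 (−0.32, adjusted p = 0.094) and Kcnh7 (−0.50, adjusted p = 0.12) no longer passed. That fit also left out genes without an annotated length, which changed the set of genes over which p was adjusted. Kcnh7 did not pass either in the fit of genes with an Ensembl identifier, which had no offset. The part of RNA length in these values was not tested beyond this offset.

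**Figure D4:**
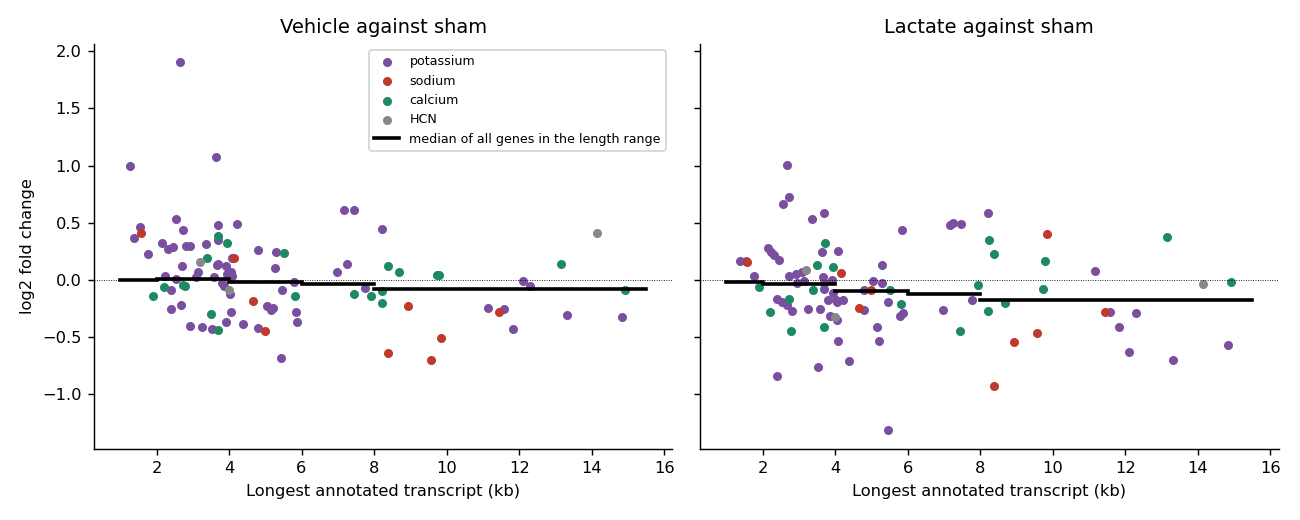
Log2 fold change (vertical axes) of each member tested against the length of its longest annotated transcript in kb (horizontal axes), for vehicle-treated and lactate-treated mice against sham. Points are coloured by class and black bars give the median of all genes in each length range, which falls from −0.02 to −0.18 in the panel of lactate-treated mice.

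The third comparison set the lactate-treated mice against the vehicle-treated ones and asked what lactate added to ischemia. By edgeR, 0 of 98 members passed an adjusted p under 0.05, against 0.00574% of all genes (1 gene), and 5 members had an unadjusted p under 0.05, compared with 8.84% of all genes. DESeq2 called 1 member, Kcna6, and limma voom 0, for which the share of all genes called is not given. The medians were −0.14 over potassium, −0.25 over HCN, −0.08 over sodium and −0.09 over calcium channel genes, against −0.03 over all genes. The scatter of replicates was wider here, with a biological coefficient of variation of 25%, than for lactate-treated against sham mice, with 18.6%.

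Kcna6 encodes a Kv1 delayed rectifier of axons and terminals. From mouse 1 to 4, Kcna6 measured 172, 326, 182 and 204 CPM with sham, 184, 153, 189.7 and 187 CPM with vehicle and 348, 309, 292 and 233 CPM with lactate. Every lactate-treated mouse was above every vehicle-treated mouse, and sham mice 1, 3 and 4 lay below every lactate-treated mouse too, whereas sham mouse 2 did not. Between the ischemic groups the log2 fold change was 0.71 (SE 0.14, edgeR adjusted p = 0.355), with an adjusted p of 0.00897 by DESeq2. Against sham it was −0.28 with vehicle and 0.44 with lactate, and Kcna6 was called in neither comparison with all mice. Without sham mouse 2, Kcna6 was called higher in lactate-treated than in sham mice (0.71, SE 0.14, edgeR adjusted p = 0.00838). No other alternative setting called it in that comparison. Its relatives Kcna1, Kcna2 and Kcna4 had values of −0.07, −0.05 and 0.14 between the ischemic groups.

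Under the study's limits, Kcna6 was higher and Kcnip4 and Kcnj6 were lower in lactate-treated than in vehicle-treated mice, against 3.76% and 2.47% of all genes (1.51% and 2.75% of those with an Ensembl identifier). For Kcnip4, with values in each mouse as given above, the log2 fold change was −0.60 (SE 0.18, edgeR adjusted p = 0.481), and the lowest vehicle-treated mouse was just under the highest lactate-treated mouse. For Kcnj6 it was −0.85 (SE 0.33, edgeR adjusted p = 0.526). Groups did not overlap for 1 member as higher (Kcna6) and 1 as lower (Kcnf1), against 2.99% and 1.83% of all genes (2.16% in each direction of those with an Ensembl identifier).

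Against sham, members that rose with lactate had log2 fold changes with vehicle of 0.44 (Kcnip3) and 0.14 (Kcnh1). Those that fell with lactate had −0.25 (Kcnip4), −0.64 (Scn1a), −0.38 (Kcnv1), −0.23 (Scn2a), −0.12 (Cacna2d1), −0.69 (Kcnj2) and −0.30 (Kcnh7) with vehicle, none of which passed. Without vehicle mouse 1, Kcnh1 turned to −0.50 with vehicle (edgeR adjusted p = 0.220) and Kcnip3 was at 0.22, Scn1a at −1.07, Scn2a at −0.55, Cacna2d1 at −0.49 and Kcnv1 at −0.12, of which Scn1a and Scn2a passed. For the 10 members called against sham, the differences between lactate-treated and vehicle-treated mice ran from −0.65 (Kcnj2) to 0.33 (Kcnh1), and none passed in this comparison. Without vehicle mouse 1, Kcnh1 was at 0.99 (SE 0.17, edgeR adjusted p = 0.169), the smallest p of any member in that fit (unadjusted p = 9.85e-05), Kcnip3 was at 0.50 and Kcnv1 at −0.60, and none passed either. A call against sham in one ischemic group and not in the other was thus not matched by a call between these groups. Without vehicle mouse 1, 0 of 98 members passed between the ischemic groups (0.00582% of all genes), 59 lay above 0 and 39 below, and the median of the sodium channel genes was 0.19, compared with −0.08 with all mice. The direction of the class medians for potassium, sodium and calcium channel genes in this comparison turned when that mouse was left out, to 0.02, 0.19 and 0.07.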

How the data were processed

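Brain RNA of 12 mice (4 sham, 4 vehicle, 4 lactate) was used, with groups and numbers from the sample labels. PCR-amplified full-length cDNA was read on a nanopore instrument. Reads were filtered by the authors for quality and length, freed of ribosomal RNA and reduced to full-length, non-chimeric ones. Mapping was by minimap2, polishing by pinfish and matching to annotated transcripts by gffcompare. The deposited count values are whole reads per gene without normalization, and the deposited CPM values are these counts scaled by the authors to the total of each mouse. The submitters' processing notes list GRCm38 and DESeq 1.10.1. The counting tool, its use of strand and the annotation are not given in the sources used here. Columns of the authors' own comparisons, which hold fold changes and p values, were not used.

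Counts were read for 31208 genes after 4 lines without a gene had been left out, with total counts of 6815920 to 10677224 per mouse, and 0 per-sample columns were left out. CPM was recomputed from the counts. Each pair of groups was fitted alone, on the whole table, with edgeR 4.0.16 (quasi-likelihood test, TMM, genes reaching 1 CPM in 4 or more of the 8 mice) in R 4.3.3. P values were adjusted by Benjamini and Hochberg over every gene tested, and a call was an adjusted p under 0.05. A second count took genes with an unadjusted p under 0.05 that changed by 1.5-fold or more. Standard errors were derived from the F statistic. A log2 fold change is positive where the group named first is higher. P values judge the difference between the groups compared against the spread between the mice within them. Families were assigned by symbol, and lengths and positions are those of GENCODE release M21 on GRCm38, found for all 137 members. On counts simulated for lactate against sham (16922 genes), the test recovered 9 of 66 genes changed 1.5-fold, 47 of 66 changed 2-fold and 65 of 65 changed 4-fold, with 4 false calls. The simulation used a common dispersion for all genes and changed far fewer genes than the real comparison called. Its recovery therefore need not hold for the real data, and the comparisons with the vehicle group were not simulated.

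Named members were those called in a comparison, those with the largest changes under the second count where fewer than 10 were called, and a list of 32 principal brain channels, 39 in all, some of which are not reported here. Further members are named beside them as relatives, after their values had been seen. The members, the lists of families, partners and markers and these rules were chosen with earlier results of these data known. Alternatives were DESeq2 1.42.0, limma voom 3.58.1 with quality weights, other size factors, only genes with an Ensembl identifier, other filters, one fit of 12 mice, a length offset, a replicate block, other call limits and leaving out each mouse. Mice that share a number in the labels are different animals, so the block was an alternative. Promoter windows come from RefSeq on GRCm38.p6. Python 3.11.15 with pandas 2.3.3, numpy 2.4.6 and matplotlib 3.10.9 was used.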

Additional observations from a re-analysis of the deposited data

Results flagged for a closer look

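Within each group of 4 mice, a value was marked where its gap to the nearest other mouse was large against the range of the group (Dixon's limit for 4 values). This marked 12 of 120 groups of values, while chance marks about 1 in 20. Vehicle mouse 1 was marked as the highest of its group for Cacng2 (39.3 CPM), Scn2a (141 CPM), Scn2b (92.6 CPM), and the summed potassium (2560 CPM), HCN (29.2 CPM) and sodium (1218 CPM) channel genes. In the same group, vehicle mouse 4 was the highest for Cacna1e (65.3 CPM) and vehicle mouse 2 the lowest for Kcna6 (153 CPM). Among sham mice, mouse 1 was marked as the highest for the summed sodium channel genes (1011 CPM), mouse 2 as the highest for Kcnh1 (61.9 CPM) and mouse 3 as the lowest for Cacnb4 (196 CPM). Lactate mouse 2 was the highest of its group for Kcnv1 (19.5 CPM).

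Kcna6 was marked because the vehicle-treated mice lay below the sham mean of 221 CPM (mean 178 CPM) and the lactate-treated mice above it (mean 295 CPM). The sham mean rested on sham mouse 2: the other 3 sham mice had 172 to 204 CPM (mean 186 CPM), and 2 of them were within the range of the vehicle-treated mice. The difference between the ischemic groups, 0.71 on the log2 scale, did not pass an edgeR adjusted p under 0.05, and since the sham mice are shared it is the test of the difference between both effects.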

How the results depend on the processing

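In lactate-treated against sham mice, Kcnip3 and Kcnip4 passed under each of 17 alternatives. One fit of all 12 mice gave 1 member as higher and 2 as lower (Kcnip3, Kcnip4 and Kcnj2), the length offset gave 4 as lower, and adjusted p with the fold limit gave 1 as higher. Leaving out 1 mouse gave 1 to 3 as higher and 2 to 8 as lower. Shares of all genes called are given for the main fits and for the fits without vehicle mouse 1 only. Counts of members under the other settings therefore have no background beside them. Kcnv1 did not pass without sham mouse 3 (−0.62, adjusted p = 0.060), nor Scn2a without sham mouse 3 (−0.51, adjusted p = 0.055) or lactate mouse 1 (−0.47, adjusted p = 0.051). Cacna2d1 passed with 2 of the 8 mice left out in turn (sham 2 or lactate 2), Kcnh7 with 2 (sham 2 or lactate 4), Kcnj2 with 3 (sham 2, sham 4 or lactate 4) and Kcnh1 with 1 (sham 2), and each kept its direction.

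In vehicle-treated against sham mice, members called higher numbered 2 under unadjusted p with the fold limit and 0 to 1 with a mouse left out. Those called lower numbered 1 under unadjusted p with the fold limit, 1 with limma voom (Scn1a) and 0 to 3 with a mouse left out, the 3 and the 1 higher coming without vehicle mouse 1. Between the ischemic groups, DESeq2 gave 1 higher, unadjusted p with the fold limit gave 1 higher and 2 lower, and leaving out any mouse gave 0. The cause was not tested. With the replicate number as a block, the counts higher and lower were 0 and 0 with vehicle (against sham), 3 and 8 with lactate (against sham), and 0 and 0 between the ischemic groups. Same-numbered mice had correlations of −0.21 to 0.20 (median 0.03 over 10930 genes), and the numbers were not taken as pairs. Over named members, 1817 alternative values stayed the same, 63 no longer passed, 12 newly passed and 77 moved by more than their spread. At these depths, a member under 0.281 to 0.440 CPM in a mouse was not told from 0. In counts simulated for lactate against sham, with few genes changed, 1.5-fold changes were mostly not recovered. In the real comparison, Scn2a, Kcnh1 and Cacna2d1 passed with changes under 1.5-fold.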
